A study of Mus musculus with 12 samples.

Results

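The Hox genes of the 4 clusters were followed through the newborn reproductive tract of the female mouse. Every array probe whose platform gene symbol is Hoxa, Hoxb, Hoxc or Hoxd with a paralog number was taken, which gave 38 genes read by 57 probes, out of 19057 genes with 1 symbol on an array of 45281 probes. There were 10 Hoxa, 10 Hoxb, 9 Hoxc and 9 Hoxd genes, and 13 of the 38 had more than 1 probe. The rule used the symbols and no measured value. Of the 38 genes 22 had a probe above background on at least 4 of the 12 arrays and were tested, and 16 were not.

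Expression was measured on Illumina bead arrays of 1 colour in 12 samples of females at postnatal day 3, 4 per group. The groups were cHet uterus and cHet vagina, of genotype Trp63 flox/wt with Pax2-cre, and cKO vagina, labelled Trp63 flox/floxt with Pax2-cre, so the controls also carried the Cre transgene and 1 floxed Trp63 allele. The background of all groups was a mixture of C57BL/6, S129/5 and CD-1. Each sample was RNA pooled from 3 mice, and a replicate here is therefore such a pool, whose spread is what the p-values measure. Pax2 is known from the epithelium of the Müllerian and mesonephric ducts, and the labels do not say in which cells Cre had acted.

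Hox genes encode homeodomain transcription factors that assign position along the body axis. They lie in clusters, and genes of the same paralog number in different clusters descend from 1 ancestral gene. As a rule, genes at the low-numbered end of a cluster are used towards the head and those at the high-numbered end towards the tail. In the Müllerian duct, which gives rise to the oviduct, uterus and upper vagina, the posterior Hoxa genes are known to be used in order, with Hoxa9 in the oviduct, Hoxa10 and Hoxa11 in the uterus and Hoxa13 in the upper vagina, mostly in mesenchyme. Hoxd13 works with Hoxa13 in the most distal urogenital tract.

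The promoters of 4 Hoxd genes are shown because the direction of the difference between vagina and uterus changed within this cluster. Hoxd4 and Hoxd10 had lower signals in vagina, Hoxd12 and Hoxd13 had higher ones, and Hoxd11, which lies between Hoxd10 and Hoxd12, was not tested. Each sequence is from RefSeq on GRCm38.p6, 5′ to 3′, from 250 bases before to 50 bases after the annotated start, and capitals mark TTTAT on either strand, a core letter string bound by posterior Hox proteins.
Hoxd4 promoter, chr2:74721728-74722027, plus strand: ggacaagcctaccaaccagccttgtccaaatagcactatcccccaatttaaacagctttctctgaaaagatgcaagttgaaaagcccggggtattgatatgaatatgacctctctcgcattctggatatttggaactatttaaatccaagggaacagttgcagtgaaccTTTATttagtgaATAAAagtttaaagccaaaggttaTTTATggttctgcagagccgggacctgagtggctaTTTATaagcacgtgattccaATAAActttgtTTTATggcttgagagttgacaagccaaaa
Hoxd10 promoter, chr2:74691641-74691940, plus strand: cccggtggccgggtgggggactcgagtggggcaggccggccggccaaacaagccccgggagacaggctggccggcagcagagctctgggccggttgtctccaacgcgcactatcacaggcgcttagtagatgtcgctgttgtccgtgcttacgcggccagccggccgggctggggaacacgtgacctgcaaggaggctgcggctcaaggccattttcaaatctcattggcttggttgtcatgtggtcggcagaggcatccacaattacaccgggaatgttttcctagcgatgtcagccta
Hoxd12 promoter, chr2:74674763-74675062, plus strand: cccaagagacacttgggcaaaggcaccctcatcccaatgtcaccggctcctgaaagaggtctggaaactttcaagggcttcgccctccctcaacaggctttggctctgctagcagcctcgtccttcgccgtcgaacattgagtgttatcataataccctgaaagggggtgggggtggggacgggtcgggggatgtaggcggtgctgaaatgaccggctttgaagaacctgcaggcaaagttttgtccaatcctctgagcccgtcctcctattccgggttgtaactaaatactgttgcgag
Hoxd13 promoter, chr2:74667975-74668274, plus strand: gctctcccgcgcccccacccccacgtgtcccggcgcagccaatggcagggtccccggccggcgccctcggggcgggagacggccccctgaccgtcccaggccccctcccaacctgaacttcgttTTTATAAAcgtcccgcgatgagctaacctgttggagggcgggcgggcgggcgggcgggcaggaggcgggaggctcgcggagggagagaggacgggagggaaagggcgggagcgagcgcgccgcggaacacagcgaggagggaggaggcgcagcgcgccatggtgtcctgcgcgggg

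TTTAT or its reverse complement ATAAA was found at 6 positions in the Hoxd4 window and at 2 in the Hoxd13 window, where both matches overlap each other and the TATA box core TATAAA. It was found at none in the Hoxd10 and Hoxd12 windows. Of all 32544 RefSeq promoter windows of this length, 39.9% held it, and it was in 9 of the 24 windows listed for 22 Hox genes. TGATNNAT, the composite string of Pbx and Hox proteins, was found in 8.79% of all windows and in 4 of the 24, none of them among the 4 printed. TATAAA was in 13.6% of all windows and in 4 of the 24. The Hox windows held a median of 14.5 CG dinucleotides, with 4 to 45, against a median of 7 in all windows. A match of letters is a description of the window, and the arrays did not measure binding.

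All values below are normalized log2 intensities, or differences between them, and levels are compared only between samples of the same probe. Above background means, for a probe on an array, an intensity over the 99% point of that array's estimated background. The lowest normalized value above background was 4.40 to 4.59, depending on the array, and values under it have no order. A gene was called where limma gave a two-sided adjusted p under 0.05, adjusted by Benjamini-Hochberg over all 11152 tested genes. Median intensity per array was 72.3 to 93.9, and the share of probes above background ran from 39.3% to 45.4%. The second principal component split replicates 1 and 2 from replicates 3 and 4 (14.8% of the variance) in every group, which no label explains, so differences within each set are given where they matter. The targeted gene Trp63 stood at 9.36 to 9.75 in cHet vagina, 9.07 to 9.91 in cKO vagina and 4.52 to 4.75 in cHet uterus. The cKO and cHet vagina pools overlapped, and since the sources used here do not give the position of the floxed part, this probe cannot serve as a check of the deletion or of the labels.

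How the organs differ in the control genotype was read from cHet vagina against cHet uterus. Of the 22 tested Hox genes 21 were called, 9 higher and 12 lower in vagina. Over all genes tested 18.6% were called, 9.44% higher and 9.16% lower. The 12 lower genes were Hoxa5, Hoxa7, Hoxa9, Hoxa11, Hoxc6, Hoxc9, Hoxc10, Hoxd3, Hoxd4, Hoxd8, Hoxd9 and Hoxd10. The 9 higher genes were Hoxb2 to Hoxb7, Hoxa13, Hoxd12 and Hoxd13, and the 1 gene not called was Hoxb9. The 4 vagina pools lay wholly to the same side of the 4 uterus pools in all 21, 9 above and 12 below, against 21.6% of all genes tested, 10.8% above and 10.8% below. For Hoxd13 the separation rests on values without an order, since cHet vagina replicate 1 and all uterus pools were not above background. A gene high in 1 organ can pass the background filter through that organ alone, so these shares describe the genes that passed. Of the 10 Hox genes above background on all 12 arrays 5 were higher and 5 lower. With the test limited to probes above background on all 12 arrays, 771 genes were called higher and 770 lower over all genes. Their share of the genes then tested is not given here. The 18.6% belongs to the filter of at least 4 arrays, so the counts of the 10 Hox genes only describe them. The sizes of the differences depend on the background correction. With none, 19 of the 21 were over 1.5 times smaller on the log2 scale, all but Hoxd10 and Hoxb7, and with an offset of 50 in place of 16, 13 were. Without correction Hoxd10 stood at -3.03, Hoxd9 at -2.05, Hoxd4 at -1.62, Hoxd8 at -1.61, Hoxa11 at -1.19, Hoxc6 at -0.91 and Hoxa5 at -0.81 (log2). The folds below therefore hold for the corrected scale alone. In bulk tissue, fewer cells of a type and less RNA per cell cannot be told apart.

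**Figure D1:**
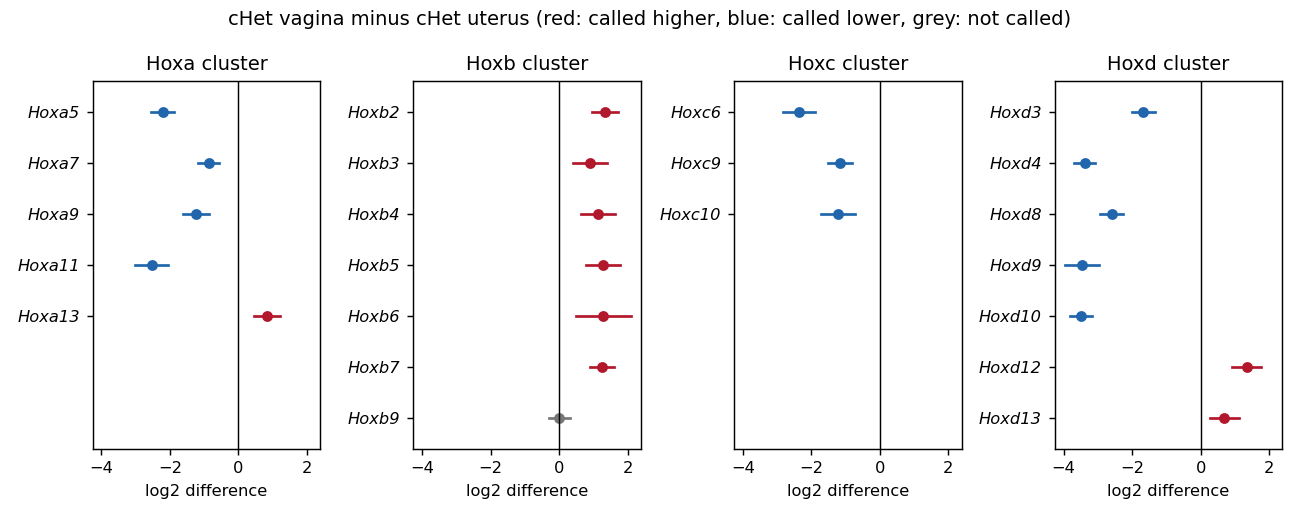
Difference of cHet vagina minus cHet uterus (x axis, log2) for the 22 tested Hox genes, ordered down each panel by paralog number, with 95% confidence intervals from limma over 12 arrays (4 pools per group). Red genes were called higher in vagina, blue genes lower, and Hoxb9 (grey) was not called. In the Hoxa and Hoxd panels the points cross 0 at the high-numbered end, and Hoxb2 to Hoxb7 all lie to the right of 0.

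The Hoxd cluster held the largest differences of the Hox genes. Hoxd10, a posterior gene of limb and hindbody, had 11.11, 10.87, 11.18 and 10.89 in cHet uterus, 7.42, 7.40, 7.70 and 7.56 in cHet vagina and 7.57, 7.30, 7.66 and 7.95 in cKO vagina. All 4 uterus pools lay above all 8 vagina pools, and it was 11.3-fold lower in cHet vagina (log2 -3.49, SE 0.15, adjusted p = 1.81e-10). Hoxd9, its neighbour, had 8.03, 8.38, 8.99 and 9.02 in cHet uterus, 5.10, 4.88, 5.31 and 5.28 in cHet vagina and 4.48, 4.48, 5.28 and 5.08 in cKO vagina. It was 11.0-fold lower in cHet vagina (log2 -3.46, SE 0.23, adjusted p = 2.53e-08), and its second probe had a difference of -3.57 (adjusted p = 8.87e-08). In all 3 groups the Hoxd9 mean of replicates 3 and 4 was above that of replicates 1 and 2, by 0.80 in cHet uterus, 0.31 in cHet vagina and 0.70 in cKO vagina.

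Central and anterior Hoxd genes went the same way. Hoxd8, a gene of the trunk, had 8.55, 8.02, 8.38 and 8.42 in cHet uterus, 6.0, 5.49, 5.83 and 5.70 in cHet vagina and 5.94, 5.47, 5.58 and 5.66 in cKO vagina. The organs were well separated, with a 6.03-fold lower signal in cHet vagina (log2 -2.59, SE 0.16, adjusted p = 9.09e-09). Hoxd4, known for its part in the hindbrain and cervical vertebrae, had 7.90, 7.93, 7.85 and 7.67 in cHet uterus, 4.24, 4.36, 4.87 and 4.34 in cHet vagina and 4.58, 4.53, 4.44 and 4.39 in cKO vagina. It was above background in 1 of 4 cHet vagina pools and 3 of 4 cKO vagina pools, and the 10.5-fold lower signal in cHet vagina (log2 -3.39, SE 0.15, adjusted p = 1.81e-10) is against pools of which 3 were not above background. Hoxd3, its neighbour in the cluster, had 5.97, 5.88, 6.09 and 5.27 in cHet uterus, 4.11, 4.18, 4.15 and 4.10 in cHet vagina and 4.15, 4.13, 4.11 and 4.28 in cKO vagina. All 4 uterus pools and no vagina pool of either genotype were above background for it. Where no array of a group was above background, a bound sets the mean of the bright group against a raised mean of the dim one. For the dim group's mean, each array gave the higher of its lowest signal above background and the probe's own value. By it Hoxd3 was at least 2.52-fold lower in cHet vagina. An adjusted p beside a bound is that of the measured difference, here -1.67 (log2, adjusted p = 1.18e-06). A bound leaves out the spread between pools and holds only for the corrected scale with an offset of 16. The Hoxd3 difference was -0.54 (log2) without background correction and -0.81 with an offset of 50. The transcribed spans of Hoxd3 and Hoxd4 overlap in RefSeq, as do those of Hoxd10 and Hoxd11, so which gene a probe in a shared part reads is uncertain.

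The genes at the other end of the cluster went the opposite way. Hoxd12, a posterior gene of limb and genital buds, had 4.77, 5.53, 4.45 and 4.71 in cHet uterus, 6.06, 6.34, 6.24 and 6.20 in cHet vagina and 5.97, 6.02, 6.46 and 6.46 in cKO vagina. In 3 of 4 uterus pools it was above background, and the signal was 2.54-fold higher in cHet vagina (log2 1.34, SE 0.20, adjusted p = 0.000123), while its second probe was above background on 0 arrays. Hoxd13, the last gene of the cluster, had 4.31, 4.16, 4.23 and 4.44 in cHet uterus, 4.52, 5.25, 5.11 and 5.02 in cHet vagina and 5.18, 5.28, 6.09 and 5.66 in cKO vagina. No uterus pool, 3 of 4 cHet vagina pools and 4 of 4 cKO vagina pools were above background for it, and it was at least 1.39-fold higher in cHet vagina (adjusted p = 0.0201). Without cHet uterus replicate 2 its adjusted p was 0.0511, without cHet vagina replicate 2 0.0654 and without cHet vagina replicate 3 0.0557, with 0.00571 to 0.125 over 24 alternatives. Hoxd11, between the genes that were lower and those that were higher, was above background on 1 array, and Hoxd1 on none.

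**Figure D2:**
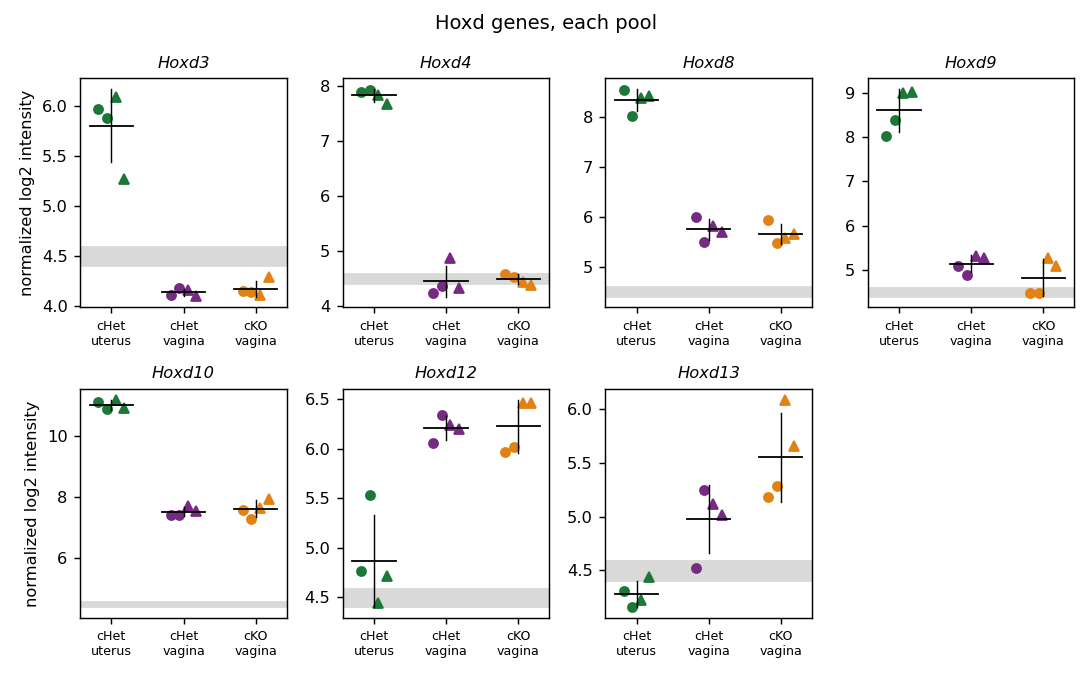
Normalized log2 intensity (y axis, a different range in each panel) of the 7 tested Hoxd genes in every pool of cHet uterus (green), cHet vagina (purple) and cKO vagina (orange). Circles are replicates 1 and 2, triangles replicates 3 and 4, bars the mean ± SD (n = 4), and the grey band spans the lowest value above background over the 12 arrays. From Hoxd3 to Hoxd10 all uterus pools lie above all vagina pools, and for Hoxd12 all lie below. For Hoxd13 the uterus pools and cHet vagina replicate 1 lie in or under the grey band.

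The Hoxa cluster changed direction between Hoxa11 and Hoxa13. Hoxa11, needed for uterine stroma and glands, had 7.27, 7.11, 7.35 and 7.76 in cHet uterus, 4.95, 5.06, 4.59 and 4.75 in cHet vagina and 5.65, 5.52, 4.59 and 4.66 in cKO vagina. It was 5.79-fold lower in cHet vagina (log2 -2.53, SE 0.23, adjusted p = 6.67e-07), and within cKO vagina replicates 1 and 2 were higher than replicates 3 and 4. Hoxa13, needed for the most distal tract, had 4.51, 4.93, 4.51 and 4.30 in cHet uterus, 5.04, 5.33, 5.70 and 5.54 in cHet vagina and 5.24, 5.38, 5.86 and 5.61 in cKO vagina. With 2 of 4 uterus pools above background, it was 1.79-fold higher in cHet vagina (log2 0.84, SE 0.18, adjusted p = 0.00307). Its difference was 0.46 within replicates 1 and 2, 1.21 within replicates 3 and 4, and in the former alone it was not called (adjusted p = 0.267, 0.000629 to 0.267 over 24 alternatives). A second Hoxa13 probe, above background in no uterus pool and in 2 of 4 cHet vagina pools, had 0.21 (adjusted p = 0.344), and the remaining one was above background in 2 cKO vagina pools alone.

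Hoxa5, known for its part in lung and thoracic patterning, had 6.38, 6.57, 6.40 and 6.72 in cHet uterus, 4.70, 4.15, 4.20 and 4.19 in cHet vagina and 4.34, 4.20, 4.69 and 4.24 in cKO vagina. With 4 of 4 uterus pools and 1 of 4 pools of each vagina group above background, it was 4.61-fold lower in cHet vagina (log2 -2.20, SE 0.16, adjusted p = 5.43e-08). The span of Hoxa3 overlaps those of Hoxa4, Hoxa5 and Hoxa6 in RefSeq, so the same doubt about which gene is read applies to Hoxa5. Hoxa7, a gene of the trunk, had 5.27, 5.85, 5.64 and 5.54 in cHet uterus, 4.73, 4.87, 4.65 and 4.58 in cHet vagina and 4.91, 4.63, 4.69 and 4.78 in cKO vagina. Every array was above background for it, and it was 1.82-fold lower in cHet vagina (log2 -0.87, SE 0.14, adjusted p = 0.000289), with adjusted p = 0.0602 in replicates 1 and 2 alone (0.000157 to 0.0602 over 25 alternatives). Hoxa9, known from the oviduct, had 5.26, 5.44, 6.03 and 5.90 in cHet uterus, 4.78, 4.47, 4.13 and 4.33 in cHet vagina and 4.42, 4.26, 4.41 and 4.19 in cKO vagina. It was above background in 2 of 4 cHet vagina pools and 2.35-fold lower there (log2 -1.23, SE 0.18, adjusted p = 0.000102), with -1.05 for a second probe (adjusted p = 0.000106), while the remaining one was above background on 0 arrays.

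Hoxa10, the gene best known for uterine identity and implantation, gave no test here. Its brighter probe had 4.21, 4.16, 4.92 and 5.42 in cHet uterus, 4.22, 4.22, 4.15 and 4.23 in cHet vagina and 4.41, 4.16, 4.13 and 4.19 in cKO vagina, above background in cHet uterus replicates 3 and 4 and on no other array, and its other probe on 0 arrays. The values in these 2 uterus pools are the only sign of Hoxa10 on these arrays, and the other pools have no order. Hoxa2 was above background in 2 uterus pools by each of its probes and in 1 cKO vagina pool by 1 of them. Hoxa4 was so in 2 uterus pools, Hoxa3 in 1 by 1 of its 4 probes, and Hoxa6 on 0 arrays.

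Of the 9 Hoxc genes 3 were tested, and for all 3 every uterus pool was above background while at most 1 vagina pool was. Hoxc6, a gene of the thoracic trunk, had 6.33, 7.46, 6.44 and 6.05 in cHet uterus, 4.08, 4.17, 4.45 and 4.14 in cHet vagina and 4.20, 4.14, 4.13 and 4.26 in cKO vagina. The 1 vagina pool above background was cHet vagina replicate 3, so the 5.14-fold lower signal in cHet vagina (log2 -2.36, SE 0.22, adjusted p = 1.18e-06) is against 3 pools that were not above background. Hoxc9, a gene of the lower trunk, had 5.58, 5.62, 4.87 and 5.17 in cHet uterus, 4.12, 4.13, 4.11 and 4.22 in cHet vagina and 4.54, 4.12, 4.15 and 4.14 in cKO vagina. Hoxc10, a gene of the lumbar level and hindlimb, had 6.10, 5.91, 4.76 and 5.03 in cHet uterus, 4.32, 4.15, 4.21 and 4.20 in cHet vagina and 4.17, 4.12, 4.17 and 4.36 in cKO vagina. Neither was above background in any cHet vagina pool. Their measured differences were -1.17 and -1.23 (log2, adjusted p = 8.14e-05 and 0.000997), and by the bound they were at least 1.79-fold and 1.98-fold lower there. For both, uterus replicates 1 and 2 were higher than uterus replicates 3 and 4, and their means differed by -0.58 and -1.11 (log2, replicates 3 and 4 minus replicates 1 and 2). A dimmer Hoxc10 probe was above background in 2 uterus pools and 1 cHet vagina pool. Hoxc4, Hoxc5, Hoxc8, Hoxc11, Hoxc12 and Hoxc13 were above background on at most 2 arrays.

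**Figure D3:**
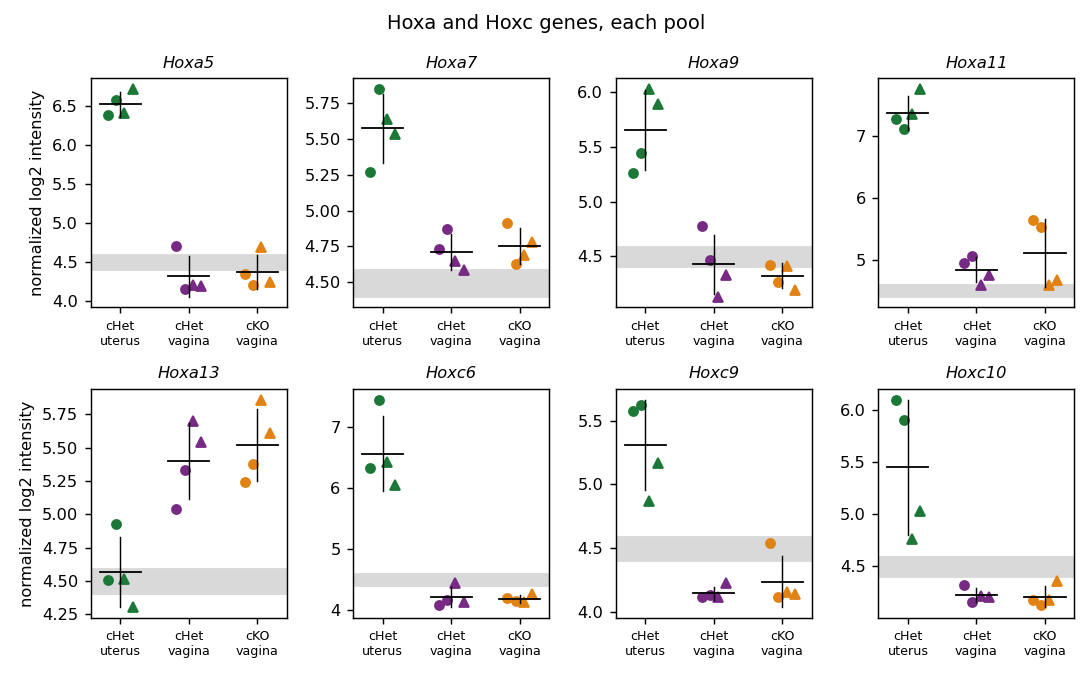
Normalized log2 intensity (y axis, a different range in each panel) of the 5 tested Hoxa and 3 tested Hoxc genes in every pool of cHet uterus (green), cHet vagina (purple) and cKO vagina (orange). Circles are replicates 1 and 2, triangles replicates 3 and 4, bars the mean ± SD (n = 4), and the grey band spans the lowest value above background over the 12 arrays. Uterus pools lie above all vagina pools in each panel except Hoxa13, where they lie below.

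The Hoxb cluster differed from the others in that 6 neighbouring genes, Hoxb2 to Hoxb7, were higher in cHet vagina, by 0.90 to 1.34 (log2). Hoxb7, a gene of the trunk and of the mesonephric duct, had 8.61, 9.01, 9.05 and 8.90 in cHet uterus, 10.16, 10.52, 10.05 and 9.84 in cHet vagina and 9.81, 10.18, 10.03 and 10.25 in cKO vagina. The organs did not overlap, with 2.38-fold more in cHet vagina (log2 1.25, SE 0.16, adjusted p = 3.10e-05) and 1.13 for a second probe (adjusted p = 0.000129). Hoxb2, known from the hindbrain, had 5.49, 5.66, 5.92 and 5.41 in cHet uterus, 7.01, 7.30, 6.50 and 7.02 in cHet vagina and 6.35, 6.97, 6.67 and 6.70 in cKO vagina. It was 2.53-fold higher in cHet vagina (log2 1.34, SE 0.18, adjusted p = 4.66e-05).

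Hoxb4, known from the hindbrain and blood stem cells, had 5.46, 6.30, 6.01 and 6.45 in cHet uterus, 7.31, 7.19, 7.41 and 6.86 in cHet vagina and 7.0, 6.52, 7.42 and 7.51 in cKO vagina. It was 2.21-fold higher in cHet vagina (log2 1.14, SE 0.23, adjusted p = 0.00196). Hoxb5, a gene of gut and lung mesenchyme, had 6.18, 6.67, 5.81 and 5.98 in cHet uterus, 7.84, 7.83, 7.07 and 7.04 in cHet vagina and 7.08, 7.40, 7.74 and 7.80 in cKO vagina. It was 2.44-fold higher in cHet vagina (log2 1.28, SE 0.23, adjusted p = 0.000751), with replicates 1 and 2 above replicates 3 and 4 in both cHet groups by mean and below them in cKO vagina. Hoxb3, which shares part of its span with Hoxb4, had 4.37, 4.63, 4.86 and 4.38 in cHet uterus, 5.49, 5.33, 5.94 and 5.09 in cHet vagina and 5.51, 4.58, 5.25 and 5.76 in cKO vagina. With 2 of 4 uterus pools above background, it was 1.87-fold higher in cHet vagina (log2 0.90, SE 0.23, adjusted p = 0.0108), with adjusted p = 0.0602 in replicates 3 and 4 alone (0.00266 to 0.0602 over 24 alternatives). Other Hoxb3 probes had 0.60 (adjusted p = 0.00702) and 0.13 (adjusted p = 0.679), so they disagreed on the call.

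Hoxb6, a gene of the lower trunk, had the highest SE of the 22. Its values were 5.91, 5.63, 5.27 and 4.87 in cHet uterus, 6.95, 7.76, 6.10 and 6.04 in cHet vagina and 6.73, 7.70, 6.19 and 6.19 in cKO vagina. Replicates 1 and 2 were above replicates 3 and 4 in every group, and within each set the vagina pools lay above the uterus pools. It was 2.45-fold higher in cHet vagina (log2 1.29, SE 0.38, adjusted p = 0.0230). Within replicates 1 and 2 the difference was 1.59, and within the other pair 1.0. Without cHet uterus replicate 3 its adjusted p was 0.0570, without cHet uterus replicate 4 0.0766, without cHet vagina replicate 1 0.0619 and without cHet vagina replicate 2 0.0800. A fit that blocked on these sets gave 0.000205, and the range was 0.000158 to 0.109 over 25 alternatives. Hoxb9, past the run of higher genes, had 4.59, 4.29, 4.70 and 4.61 in cHet uterus, 4.50, 4.48, 4.67 and 4.55 in cHet vagina and 4.77, 4.31, 4.58 and 4.89 in cKO vagina, above background in 3 of 4 pools of each group. Its difference was 0.00 (SE 0.15, 95% interval -0.31 to 0.31, adjusted p = 0.998), and the groups overlapped. Hoxb1 and Hoxb13 were above background on 0 arrays and Hoxb8 on 1.

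**Figure D4:**
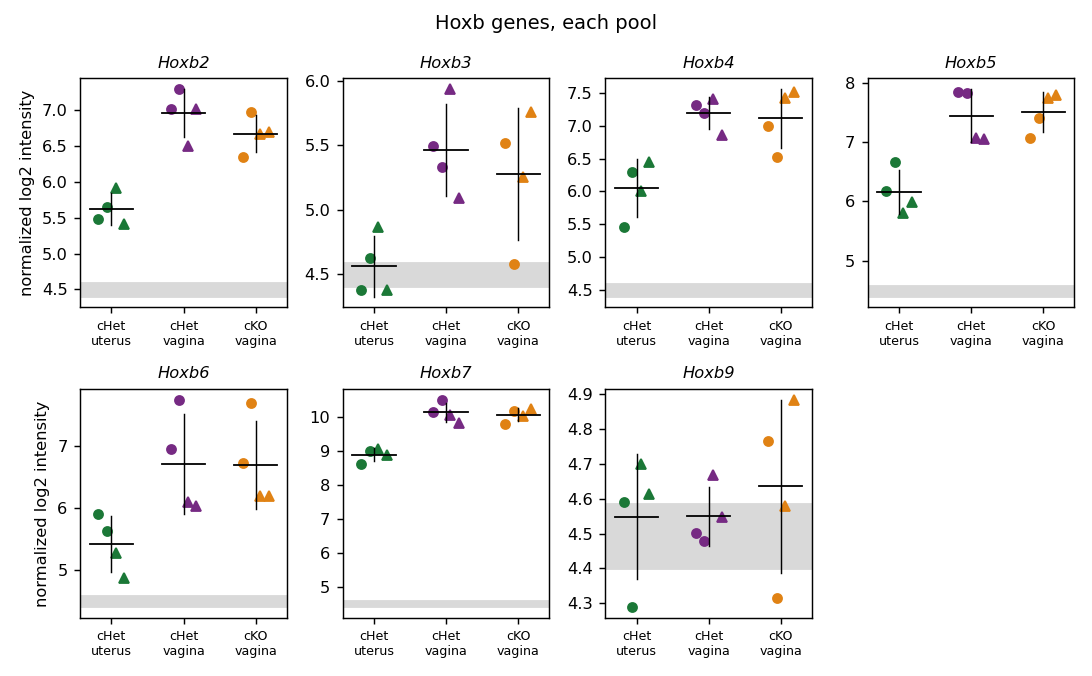
Normalized log2 intensity (y axis, a different range in each panel) of the 7 tested Hoxb genes in every pool of cHet uterus (green), cHet vagina (purple) and cKO vagina (orange). Circles are replicates 1 and 2, triangles replicates 3 and 4, bars the mean ± SD (n = 4), and the grey band spans the lowest value above background over the 12 arrays. The cHet vagina pools lie above the uterus pools from Hoxb2 to Hoxb7 and overlap them for Hoxb9.

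Read by paralog number, genes of the same number did not all go the same way. Of the paralog 4 genes, Hoxb4 was higher and Hoxd4 lower in cHet vagina, and of the paralog 3 genes Hoxb3 was higher and Hoxd3 lower. Of the paralog 7 genes, Hoxb7 was higher and Hoxa7 lower. Of the paralog 9 genes, Hoxa9, Hoxc9 and Hoxd9 were lower and Hoxb9 was not called. Both tested paralog 10 genes, Hoxc10 and Hoxd10, were lower, and both tested paralog 13 genes, Hoxa13 and Hoxd13, were higher. Paralogs 1 to 3 held 2 higher and 1 lower gene of 3 tested. Paralogs 4 to 8 held 4 higher and 5 lower genes of 9 tested, and paralogs 9 to 13 held 3 higher and 6 lower of 10 tested. Over all genes tested 9.44% were higher and 9.16% lower. These counts describe only genes that passed the background filter, some of them through the uterus.

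The effect of the second floxed Trp63 allele was read from cKO against cHet vagina. Of the 22 tested Hox genes 1 had an unadjusted p under 0.05 by limma, against 789 of all 11152 genes tested. None of the 22 was called by limma, and the groups overlapped in all 22. Some of them passed the background filter through the uterus. Hoxd3 and Hoxc10 were above background in 0 pools of either vagina group. Hoxc6 was so in 1 cHet vagina pool, Hoxc9 in 1 cKO vagina pool and Hoxa5 in 1 pool of each. Hoxa9 was so in 2 cHet vagina pools and 1 cKO vagina pool. For these genes most vagina values have no order, so neither the missing call nor the overlap is a result about genotype. Over all genes 0.386% were called, 0.0538% higher and 0.332% lower in cKO vagina, and the groups did not overlap in 4.33%, with cKO vagina above in 1.68% and below in 2.65%. The differences ran from -0.31 to 0.58 with a median of 0.02, against -0.00892 over all genes tested. Hoxd13, for which cHet vagina replicate 1 was not above background, was the gene with the low unadjusted p. Its mean log2 intensity was 5.55 ± 0.41 in cKO and 4.98 ± 0.32 in cHet vagina (SD, n = 4 each). The difference was 0.58 (SE 0.20, 95% interval 0.16 to 1.0, unadjusted p = 0.00970, adjusted p = 0.402) and failed the correction. Per set it was 0.35 within replicates 1 and 2, 0.81 within replicates 3 and 4.

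For other genes that were above background in the vagina pools, the intervals bound what these pools could show. Hoxd10 had 0.10 (95% interval -0.22 to 0.42, adjusted p = 0.955). Hoxd4 had 0.03 (-0.28 to 0.34), but only 1 cHet and 3 cKO vagina pools were above background for it. Its interval therefore rests in part on values without an order and is no such bound. Hoxd9 had -0.31 (-0.81 to 0.18, adjusted p = 0.870), the lowest of the 22. Hoxa11 had 0.27 (-0.22 to 0.75) and Hoxa13 0.12 (-0.26 to 0.51). Hoxb2 had -0.29 (-0.67 to 0.10), Hoxb7 -0.07 (-0.42 to 0.27) and Hoxb6, the widest interval, -0.01 (-0.80 to 0.79). An adjusted p above the threshold does not show that the genotypes were alike. In 14 of the 22 genes the sign differed between replicates 1 and 2 and replicates 3 and 4. Among them, Hoxb5 had -0.60 within replicates 1 and 2 and 0.71 within replicates 3 and 4, and Hoxa11 had 0.58 and -0.05. The 14 also include Hoxa5, Hoxa9, Hoxc6, Hoxc9, Hoxc10 and Hoxd3, whose signs rest mostly on values without an order. For Hoxa9, Hoxb3 and Hoxb7 the other kept probes had a difference of the opposite sign, with 0.05 for Hoxa9, 0.30 and 0.20 for Hoxb3 and 0.11 for Hoxb7, none of them called. For Hoxa9 most vagina values of either kept probe have no order. Of all marker genes in the cell type lists 1 was called, Upk2 of urothelium (-1.36, SE 0.18, adjusted p = 0.00172), where 0.386% of all genes tested were called. The summed signal of the 5 urothelial genes was 660 to 1024 in cHet vagina and 266 to 566 in cKO vagina, without overlap. The summed red blood cell signal was 7752 to 10284 in cHet vagina and 9722 to 30051 in cKO vagina.

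**Figure D5:**
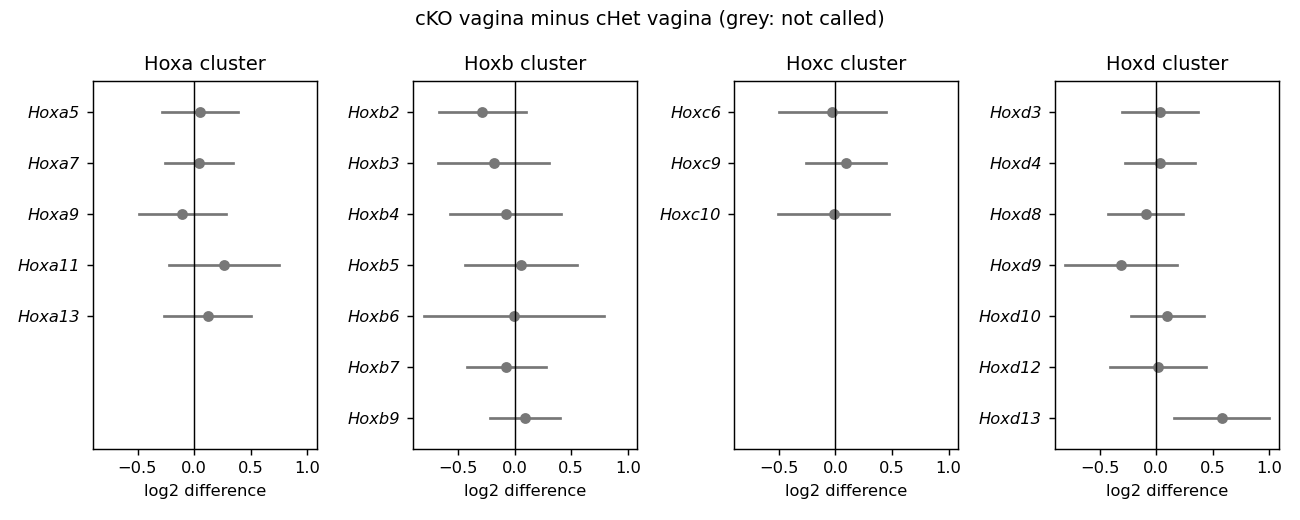
Difference of cKO vagina minus cHet vagina (x axis, log2) for the 22 tested Hox genes, ordered down each panel by paralog number, with 95% confidence intervals from limma over 12 arrays (4 pools per group). No gene was called; the interval of Hoxd13 alone does not reach 0, before correction for the number of genes.

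Against cHet uterus, cKO vagina had 9 Hox genes higher and 12 lower of 22, where 18.4% of all genes were called, 8.92% higher and 9.44% lower. The cKO vagina pools lay wholly above the uterus pools for 8 genes and wholly below for 12, against 10.5% and 11.2% of all genes and 21.7% in either direction. The uterus pools are those of the first comparison and the cKO vagina pools those of the second, so the values are only set beside theirs. The log2 difference was -3.39 for Hoxd10 (adjusted p = 2.82e-10), -3.78 for Hoxd9, -2.68 for Hoxd8 and -3.35 for Hoxd4. Hoxd3, Hoxc6 and Hoxc10 were above background in no cKO vagina pool and by the bound were at least 2.62-fold, 4.45-fold and 2.05-fold lower. Their measured differences were -1.63, -2.39 and -1.25 (log2, adjusted p = 1.85e-06, 1.29e-06 and 0.000986). Hoxc9 had -1.07, Hoxa5 -2.15 and Hoxa9 -1.34, each against cKO vagina pools of which 1 of 4 was above background. Hoxa7 had -0.82 and Hoxa11 -2.27, above background on every array. Without background correction 19 of the 21 differences were over 1.5 times smaller here too.

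Of the genes higher in cKO vagina than in cHet uterus, Hoxd13 had a measured difference of 1.27 (adjusted p = 0.000191), and by the bound was at least 2.07-fold higher. Hoxd12 was 1.36 higher (adjusted p = 0.000123) and Hoxa13 0.96 (adjusted p = 0.00112). Hoxa13 was not called in replicates 1 and 2 alone (0.59, adjusted p = 0.129, 0.000268 to 0.129 over 24 alternatives), and its second probe had 0.22 (adjusted p = 0.326). In the same replicates Hoxd12 was smaller, at 0.84 (adjusted p = 0.0485). Hoxb2, Hoxb4, Hoxb5 and Hoxb7 were higher by 1.05, 1.06, 1.34 and 1.18. Hoxb4 was not called in replicates 1 and 2 alone (0.88, adjusted p = 0.0514, 0.000252 to 0.0514 over 25 alternatives), and Hoxb5 was 0.81 within replicates 1 and 2, 1.87 within replicates 3 and 4. Hoxb3, whose pools overlapped, had 0.72 (adjusted p = 0.0409), and the call was lost when cHet uterus replicate 1, 2 or 4, or cKO vagina replicate 1, 3 or 4, was left out (adjusted p from 0.0688 to 0.134, and 0.00153 to 0.260 over 24 alternatives). A second Hoxb3 probe, whose pools did not overlap, had 0.90 (adjusted p = 0.000282), and another had 0.33 (adjusted p = 0.193). Hoxb6 had 1.28 (adjusted p = 0.0240), and the call was lost when cHet uterus replicate 3, cHet uterus replicate 4, cKO vagina replicate 1 or cKO vagina replicate 2 was left out (adjusted p = 0.0593, 0.0781, 0.0532 and 0.0838, and 0.000181 to 0.117 over 25 alternatives). Hoxb9 had 0.09 (adjusted p = 0.753).

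Genes that work with the Hox genes were read from lists. These and the lists below were chosen with earlier results of these data known, so their counts only describe the lists. Of 9 Hox cofactor genes, which encode homeodomain partners that bind DNA with Hox proteins, 8 were tested, and between cHet vagina and cHet uterus 0 were higher, 2 lower and 6 not called, where 9.44% of all genes were higher and 9.16% lower, with a median of -0.29 against -0.0154 over all genes. The 2 were Pknox2 (-1.30, SE 0.17, adjusted p = 2.36e-05) and Pknox1 (-0.67, SE 0.14, adjusted p = 0.00237), while Meis1 was not called (0.02, SE 0.12, adjusted p = 0.940). Of 20 chromatin regulators of the clusters, such as Polycomb and trithorax group genes, 18 were tested and 0 called, with a median of 0.05. At an unadjusted p under 0.05 there were 0 of the 18, against 3220 of all 11152 genes tested. Of 8 axial regulators that act on Hox clusters, Cdx1, Cdx2 and Cdx4 among them, 3 were tested and 1 was higher, the receptor gene Tgfbr1 (0.72, SE 0.16, adjusted p = 0.00371). Between cKO and cHet vagina none of these 3 lists had a called gene. At an unadjusted p under 0.05 there were 1, 0 and 0, against 789 of all 11152 genes tested.

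Beyond the Hoxa13 end of the Hoxa cluster, the homeobox gene Evx1 stood out. Its mean log2 intensity was 7.47 ± 0.28 in cHet vagina against 4.48 ± 0.29 in cHet uterus (SD, n = 4 each). The signal was 7.92-fold higher in vagina (2.99, SE 0.25, adjusted p = 2.59e-07), and 2 of 4 uterus pools were above background for it. Between cKO and cHet vagina Evx1 had 0.09, SE 0.25, adjusted p = 0.981. Hottip, the noncoding transcript between Hoxa13 and Evx1, was above background in 0 of 4 uterus, 1 of 4 cHet vagina and 4 of 4 cKO vagina pools. It was called in cKO vagina against cHet uterus (adjusted p = 0.0111) and not in cHet vagina against cHet uterus (0.22, SE 0.12, adjusted p = 0.268), and the difference between cKO and cHet vagina was 0.26, SE 0.12, adjusted p = 0.708. Of the list of cluster flanks and noncoding transcripts, 10 of 35 names were tested, 2 higher and 0 lower in cHet vagina, against 9.44% and 9.16% of all genes. The other higher gene, 0610040J01Rik, lies on chromosome 5, outside the clusters. Skap2 and Snx10, on the same chromosome as the Hoxa cluster, had 0.17, SE 0.15, adjusted p = 0.545 and -0.07, SE 0.19, adjusted p = 0.860.

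Of 18 genes known to act downstream of Hox genes in the tract, kidney or limb, 10 were tested, and 2 were higher and 4 lower in cHet vagina, against 9.44% and 9.16% of all genes, with a median of -0.48. The largest differences were Itga8, an integrin chain (-1.35, SE 0.21, adjusted p = 0.000226), Bmp7, a secreted growth factor (1.19, SE 0.16, adjusted p = 5.21e-05), Hand2, a transcription factor of uterine stroma (-1.15, SE 0.19, adjusted p = 0.000375), and Wnt4, a Wnt ligand of the Müllerian tract (-1.12, SE 0.19, adjusted p = 0.000421). Of 19 other homeobox and patterning genes of the tract, 12 were tested, 5 higher and 2 lower against the same shares of all genes, with a median of 0.19, led by Isl1, a gene of the distal urogenital tract (6.01, SE 0.25, adjusted p = 1.74e-10), Msx1, of uterine mesenchyme and epithelium (-1.99, SE 0.34, adjusted p = 0.000428), Tshz1 (-1.27, SE 0.15, adjusted p = 1.00e-05) and Dlx6 (1.12, SE 0.16, adjusted p = 7.16e-05). Isl1 was above background in 1 of 4 uterus pools. Neither list had a called gene between cKO and cHet vagina. At an unadjusted p under 0.05 there were 1 and 1, against 789 of all 11152 genes tested.

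Markers of some cell types differed between the organs as well. Over all genes tested 9.44% were higher and 9.16% lower in cHet vagina, beside the counts below. Of 11 epithelial genes 10 were higher in cHet vagina than in cHet uterus and 0 lower, and their summed background-corrected signal was 3891 to 4697 in uterus, 9066 to 14000 in cHet vagina and 7488 to 11877 in cKO vagina. Of 10 mesenchymal genes 1 was higher and 3 lower, with summed signals of 13739 to 16041, 14793 to 20736 and 17579 to 20512 in the same order. The list's median was 0.25, the higher gene was Dcn (0.48, SE 0.14, adjusted p = 0.0242), and the lower ones were Tcf21 (-2.24, SE 0.15, adjusted p = 2.92e-08), Pdgfrb (-0.69, SE 0.22, adjusted p = 0.0416) and Twist1 (-0.52, SE 0.15, adjusted p = 0.0188). Of 7 tested endothelial genes 5 were lower and 0 higher, with 2422 to 2730, 960 to 1411 and 917 to 1236. The mesothelial and oviduct list was at 690 to 1216 in uterus, 51.8 to 122 in cHet vagina and 40.5 to 57.8 in cKO vagina, with Msln and Upk3b called lower in vagina. Of the urothelial list, which also holds Upk3b, 3 of 5 genes were higher and 2 lower. Of 8 tested smooth muscle genes 2 were higher and 1 lower, of 7 skeletal muscle genes 0 and 0, of 8 leukocyte genes 1 and 3, of 4 red blood cell genes 0 and 1, and of 4 neural genes 2 and 1. The part of these markers in the Hox differences was not tested.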

How the data were processed

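Bead array signals of 12 pools were used, with 4 pools in every group. The deposited table holds 1 linear intensity per probe and array, as processed by the authors, with column means of 248 to 252, so the arrays had been scaled, by a method that the sources used here do not give. Another 24 columns, 12 of signals, were left out because their names fit no sample's labels. Biotin-labelled cRNA had been made with the Ambion MessageAmp kit, per the labels' protocols.

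Background was estimated for each array as the mode of the intensities (69.2 to 90.7) and its SD came from the values below it. The normexp model (limma 3.58.1, R 4.3.3) was applied to the intensities, 16 was added, and after quantile normalization log2 was taken. Probes above background on at least 4 of 12 arrays were kept (20675), and each of the 11152 genes was read from its brightest kept probe. Symbols came from the platform annotation, which gave 34885 probes 1 symbol, 18 probes several and 10378 probes none, and 78 annotated probes found no gene identifier in the RefSeq table. Group means were fitted over all 12 arrays with lmFit and eBayes of limma (15.8 degrees of freedom), and every adjusted p is from limma with Benjamini-Hochberg adjustment over all genes tested. The fit was tried on simulated data with known changes and independent noise on each array, without the split between the replicate sets.

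Members and lists were chosen with earlier results of these data known. Every Hox gene called in a comparison is given by pool, with Hoxa10 in any case, and up to 4 called genes of each list are named; genes of lists that were not called were named after their values were seen. Arrays of cHet vagina and cHet uterus that share a number deviated together (correlations of 0.117 to 0.431 in 4 pairs). With cKO vagina 3 of 4 pairs were over 0.1. In each comparison the best match bore the same number in 2 of 4 pairs. In the rest it bore the other number of the same replicate set. Whether the numbers pair the arrays, or only the sets are shared, was not tested. The number of arrays limits the precision.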

Additional observations from a re-analysis of the deposited data

Results flagged for a closer look

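In each group of 4 pools, a value was looked at again where its gap to the nearest pool was over Dixon's 95% critical value as a share of the group's range, which chance gives in about 1 of 20 groups; 3 of 66 groups of the tested Hox genes had such a pool. Hoxa5 in cHet vagina replicate 1 stood at 4.70, with the next pool at 4.20, and was the only cHet vagina pool above background for it. Hoxc9 in cHet vagina replicate 4 stood at 4.22, with the next at 4.13, and no pool of that group was above background, so the values have no order. Hoxc9 in cKO vagina replicate 1 stood at 4.54, with the next at 4.15, and was the only cKO vagina pool above background for it.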

How the results depend on the processing

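Over 25 alternatives the called Hox genes numbered 18 to 21 for cHet vagina against cHet uterus and 17 to 21 for cKO vagina against cHet uterus, except 10 and 10 with probes above background on all 12 arrays, where 10 Hox genes could be tested; for cKO against cHet vagina the number was 0 throughout. With the replicate block the numbers were 21, 0 and 21, and the block changed no call. No called gene changed sign, and 16 of 21 and 17 of 21 kept their call in every alternative that tested them. Hoxc10 and Hoxd3 were not tested without any 1 uterus array, since they then passed the background level on 3 arrays. With no background correction Hoxb6 and Hoxd13 were not called in the first comparison (adjusted p = 0.109 and 0.125). Nor were they with an offset of 50 (0.0696 and 0.0968) or with no filter on dim probes (0.0947 and 0.0513). Without that filter 0 of the 16 further Hox genes were called there by limma, and 2, Hoxa2 and Hoxc4, had an unadjusted p under 0.05. For cKO vagina against cHet uterus the same settings ended the calls of Hoxb3 and Hoxb6. Their adjusted p was 0.119 and 0.117 without correction, 0.0915 and 0.0739 with the offset and 0.109 and 0.0987 without the filter. The cause was not tested. Called differences were over 1.5 times smaller for 19 and 19 genes without background correction and for 13 and 12 with an offset of 50, and none was over 1.5 times larger in any of the 25. They were also smaller by that much for Hoxa9 in the first comparison in replicates 1 and 2 alone (-0.73) and for Hoxc10 in replicates 3 and 4 alone (-0.69 and -0.63). With the mean of all kept probes Hoxa13 was 0.53 and 0.59 and Hoxb3 0.55 in the first. Uncalled differences of cKO against cHet vagina changed sign in 48 of 530 values. Without quantile normalization the median of all genes moved to 0.11 for cKO against cHet vagina and 0.17 for cKO vagina against cHet uterus, and the calls over all genes went from 6 higher and 37 lower to 11 and 20, and from 995 and 1053 to 1691 and 592, while the Hox calls stayed at 0 and at 9 higher and 12 lower. Signal over background limits the 16 genes that were not tested.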

Other observations

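In cKO vagina Hoxa11 was split by replicate set, with 5.65, 5.52, 4.59 and 4.66 in replicates 1 to 4, where cHet vagina had 4.95, 5.06, 4.59 and 4.75. Hoxb6 differed between the sets in all 3 groups, with replicates 3 and 4 minus replicates 1 and 2 at -0.69 (cHet uterus), -1.28 (cHet vagina) and -1.02 (cKO vagina) on the log2 scale. Its neighbour Hoxb5 had -0.53, -0.78 and 0.53, with the opposite sign in cKO vagina. No label says what the sets share, and these differences were not tested.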
